A study of Mus musculus with 2 samples.

Results

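The p53 pathway and growth arrest genes were examined in mRNA sequencing of mouse liver, in 1 control library and 1 iFIRKO library. The 10 members, *Trp53*, *Mdm2*, *Cdkn1a*, *Ccng1*, *Btg2*, *Gadd45a*, *Bax*, *Bbc3*, *Sesn2* and *Trp53inp1*, were picked by gene symbol from the 53241 distinct symbols of the 2 files. The rule uses symbols only, but the set was proposed with earlier results of these data known. The iFIRKO mouse has the genotype Adipoq-CreERT2; Insr flox/flox, in which tamoxifen switches on a Cre recombinase driven by the adiponectin promoter, so that the insulin receptor gene *Insr* is removed from adipocytes and not from liver cells. The control is given as WT in the sample labels and as IR flox/flox, with no Cre named, in the study's methods. Both groups were male, were 7 weeks old, were given tamoxifen (100 mg/kg, 5 days) and had their livers taken on day 3 after the last dose. Neither the labels nor the methods say whether a liver library came from 1 mouse or from a pool. With 1 library per group there is no replicate check and no test. Every fold change below is iFIRKO over control, and every interval is a 95% interval that covers counting error only.

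The transcription factor p53 is kept scarce by MDM2, a ubiquitin ligase that marks it for destruction and whose own gene p53 switches on. When DNA damage, nutrient stress or unbalanced growth signals release p53 from MDM2, it binds DNA at paired copies of a short motif and turns on genes for cell cycle arrest, DNA repair, metabolism and cell death. In liver this system is known for holding hepatocytes at the checkpoints of the cell cycle, and p21, the product of *Cdkn1a*, is known for slowing hepatocyte division during regeneration. Several of the members also answer to factors other than p53, such as FOXO proteins, ATF4 and growth factor signalling.

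The sequences that bear on this wiring are the p53 motifs at the promoters of the members. RefSeq promoter windows (GRCm38.p6, 250 bases before to 50 after a start site) were at hand for 9 of the 10 members, in 12 windows, with no entry for *Trp53inp1*. A pair of p53 consensus half-sites with no mismatch and 0 to 13 bases between them was found in 1 member, *Cdkn1a*, and in 0.0731% of all 32851 windows. With 1 mismatch allowed in the pair, *Ccng1* was added, which made 2 members against 0.627% of all windows. The pairs are shown in the direction of transcription with the half-sites in capitals. *Cdkn1a* has 2 windows, and only the upstream one held p53 half-sites. The other, at chr17:29093519-29093818, held none. The first pair lies at chr17:29090894-29090949 on the plus strand, with its first motif base 73 bases before the upstream start of *Cdkn1a*. The second, 51 bases before the same start at chr17:29090916-29090959, shares a half-site with the first. The third lies at chr11:40755450-40755493 on the minus strand, with its first motif base 195 bases before the start of *Ccng1*.
Cdkn1a, pair without mismatch: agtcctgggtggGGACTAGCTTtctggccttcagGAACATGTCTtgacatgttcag
Cdkn1a, pair with 1 mismatch: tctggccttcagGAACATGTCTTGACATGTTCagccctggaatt
Ccng1, pair with 1 mismatch: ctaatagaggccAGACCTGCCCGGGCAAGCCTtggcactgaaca

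Single half-sites are common, and 8.36% of all windows held 1 or more. They were found in 6 members, namely *Trp53*, *Mdm2*, *Cdkn1a*, *Ccng1*, *Gadd45a* and *Bax*. The windows of *Btg2*, *Bbc3* and *Sesn2* held no match to the half-site, which says only that these letters are not in those windows. The window of *Btg2* held a cAMP response element, TGACGTCA on either strand, which 1.79% of all windows held. It starts 166 bases before the start site, on the minus strand at chr1:134079302-134079333. It is printed here with the element in capitals because *Btg2* is a gene that other signals also switch on. Other motifs were read in the same windows and are not printed. The FOXO site TGTTTAC was found in 2 members, *Mdm2* and *Bbc3*, and in 3.65% of all windows. The E-box was found in 3 members (7.15% of windows) and the TATA box in 1 (13.6%). The GC box and the CCAAT box were each found in 7 members (35.7% and 37.4%). Member counts of motifs are per gene, with up to 3 windows for a gene, while the shares are of single windows. The shares are also not matched for base content. The median GC content was 64.7% in the member windows and 52.7% in all windows.
Btg2, cAMP response element: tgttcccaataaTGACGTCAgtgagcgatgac

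Among the effectors of the pathway, *Cdkn1a* was higher in the iFIRKO liver, and *Bbc3* and *Gadd45a* were lower. *Cdkn1a* encodes the CDK inhibitor p21, *Bbc3* the pro-apoptotic BH3-only protein PUMA, and *Gadd45a* a stress sensor that takes part in arrest and DNA repair. The other 7 members lay within 1.5-fold. The levels of *Trp53* and of *Mdm2* differed between the libraries by less than counting error.

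A gene was called when its fold change passed 1.5, the threshold the study used, among the 13390 genes that reached 1 CPM (read counts scaled to a common library total), here 41.8 normalized reads, in 1 or both libraries. All 10 members were found in both files and reached that level. The call was met upward by 1 of 10 members and downward by 2 of 10, while 4.46% of all genes tested were higher and 7.29% were lower. For a background of like level, the members were also set beside the 7940 tested genes whose mean level lay within the members' own range, 238.9 to 3522 normalized reads. Of those, 2.29% were higher and 3.88% were lower. With 10 members, each share turns on 1 or 2 genes.

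**Figure D1:**
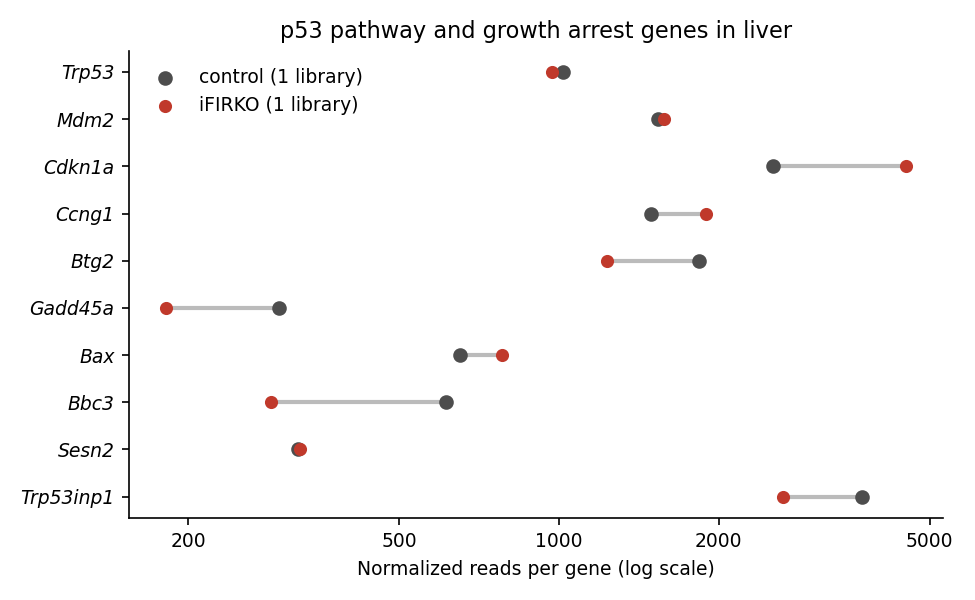
Normalized reads per gene (log axis) of the 10 members in the control library (dark points) and the iFIRKO library (red points), joined by a line for each gene. *Cdkn1a* moved up from 2536 to 4508 and *Bbc3* moved down from 613 to 287, while the points of *Trp53*, *Mdm2* and *Sesn2* nearly coincide.

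The p53 gene itself and its feedback ligase were level. *Trp53* stood at 1017 normalized reads in control and 968 in iFIRKO (log2 fold change -0.07, interval -0.25 to 0.11). *Mdm2* had 1538 and 1574 normalized reads, a log2 fold change of 0.03 (-0.11 to 0.18). p53 is controlled mainly through the stability of its protein, which was not measured here.

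The arrest genes did not share a direction. *Cdkn1a* stood at 2536 normalized reads in control and 4508 in iFIRKO, 1.78-fold higher, with a log2 fold change of 0.83 (0.73 to 0.93). Its log2 fold change stood above 97.6% of all genes tested and above 98.9% of those in the members' range of level. *Ccng1*, which encodes cyclin G1, a p53 target that brings a phosphatase to MDM2, had 1491 and 1891 normalized reads, 1.27-fold higher, with a log2 fold change of 0.34 (0.20 to 0.48). These were the 2 members whose promoter windows held a pair of p53 motifs, an arrangement noticed after the values were seen.

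*Btg2*, an antiproliferative cofactor that recruits the machinery for mRNA deadenylation, stood at 1838 normalized reads in control and 1231 in iFIRKO. That is a log2 fold change of -0.58 (-0.73 to -0.43), or 1.49-fold, just short of the threshold. *Gadd45a* had 296.1 and 181.7 normalized reads, 1.61-fold lower, with a log2 fold change of -0.69 (-1.10 to -0.32). It was the least sampled member, with 149 and 90 estimated read pairs, and the upper end of its interval lies within 1.5-fold.

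Among the cell death genes the directions were also mixed. *Bbc3* stood at 612.7 normalized reads in control and 287.0 in iFIRKO, 2.12-fold lower, with a log2 fold change of -1.08 (-1.38 to -0.80). Only 1.55% of all genes tested, and 0.567% of those in the members' range of level, had a lower log2 fold change. *Bax*, the effector that permeabilises the mitochondrial outer membrane, had 649.9 and 782.3 normalized reads and a log2 fold change of 0.27 (0.05 to 0.49). *Trp53inp1*, a p53-inducible nuclear protein that takes part in autophagy and cell death, had 3719 and 2647 normalized reads, 1.40-fold lower, with a log2 fold change of -0.49 (-0.59 to -0.39). *Sesn2*, whose product Sestrin 2 senses leucine and restrains mTORC1, had 321.6 and 324.3 normalized reads, a log2 fold change of 0.01 (-0.31 to 0.33).

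**Figure D2:**
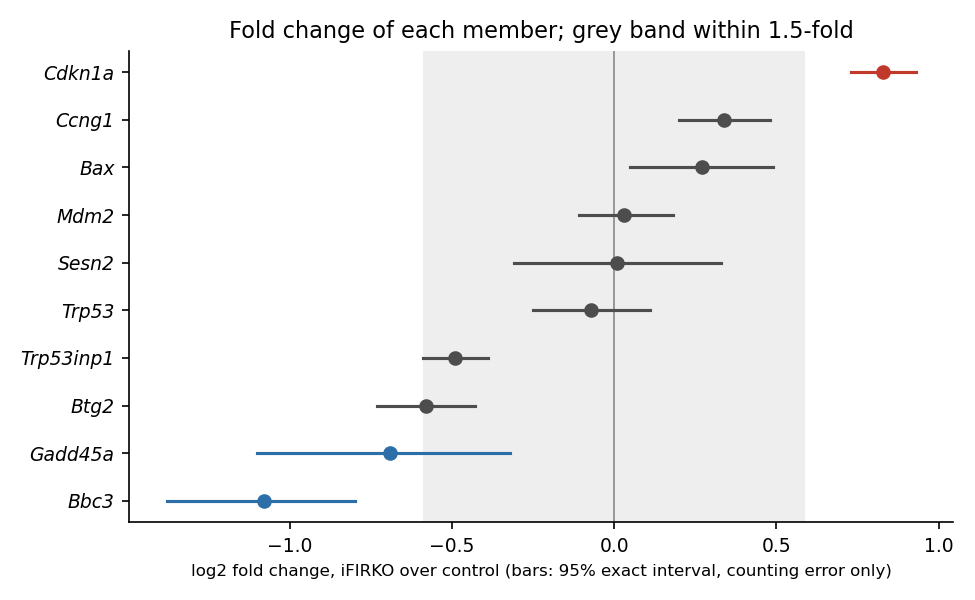
Log2 fold change of each member, iFIRKO over control (points), with its 95% counting interval (bars) and the band within 1.5-fold shaded. *Cdkn1a* at 0.83 lies to the right of the band, *Gadd45a* at -0.69 and *Bbc3* at -1.08 lie to its left, and *Btg2* at -0.58 sits on its edge.

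As a group the members spread apart rather than moving one way. Their log2 fold changes were above 0 for 5 members and below 0 for 5, with a median of -0.03 beside 0.008 over all genes tested. The counting interval lay above 0 for 3 members (*Cdkn1a*, *Ccng1* and *Bax*), below 0 for 4 (*Btg2*, *Gadd45a*, *Bbc3* and *Trp53inp1*) and spanned 0 for 3. The SD of the log2 fold changes was 0.57 over the 10 members and 0.32 over the 7940 genes in their range of level. The members farthest from 0 were *Bbc3* (-1.08) and *Cdkn1a* (0.83). Because the set was proposed with earlier results of these data known, the wider SD is a description only. The summed normalized reads of the members were nearly the same in the 2 libraries, with a log2 ratio of 0.04, but the log2 ratio was -0.22 without *Cdkn1a*. *Cdkn1a* made up 18.1% of that sum in control and 31.3% in iFIRKO.

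**Figure D3:**
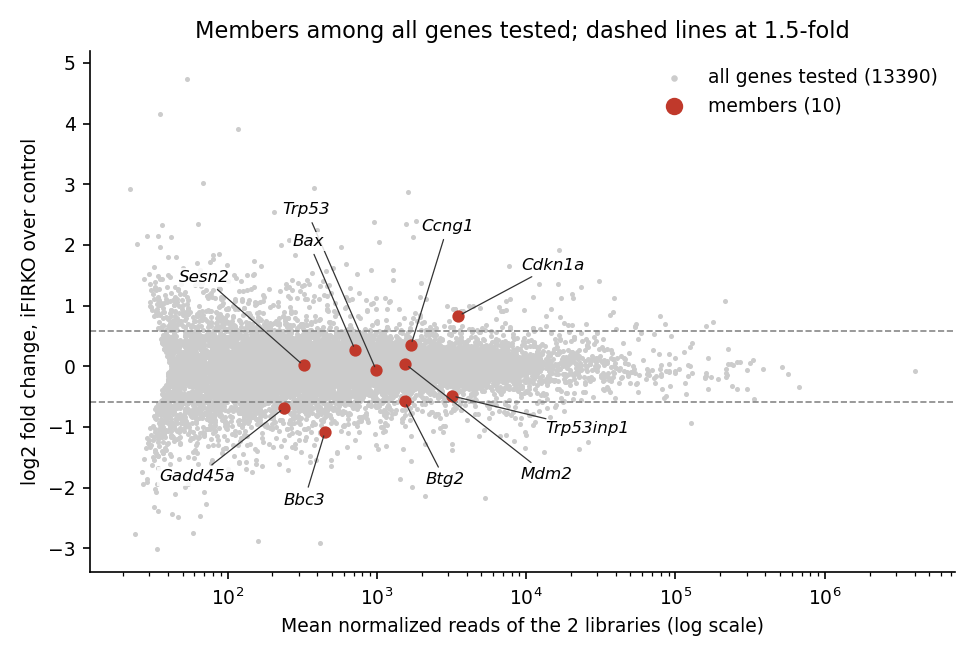
Log2 fold change, iFIRKO over control, against the mean normalized reads of the 2 libraries (log axis) for the 13390 genes tested (grey) and the 10 members (red), with dashed lines at 1.5-fold. *Cdkn1a* lies above the cloud at its level and *Bbc3* below it, while *Trp53*, *Mdm2* and *Sesn2* lie near 0.

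The order of the members by level also differed between the libraries. Levels were compared between genes as normalized reads per kb of annotated exon, which understates a gene whose longer annotated exons are not used in liver. In the control library *Cdkn1a* stood first at 714 reads per kb, followed by *Btg2* at 670 and *Trp53inp1* at 574. In the iFIRKO library *Cdkn1a* again stood first, at 1269 reads per kb, but *Ccng1* at 538 and *Bax* at 496 came next, ahead of *Btg2* at 449 and *Trp53inp1* at 409. *Sesn2* was the lowest in both, at 92.6 and 93.3 reads per kb. *Gadd45a* was next, at 168 in control and 103 in iFIRKO. Per kb, *Cdkn1a* exceeded *Bbc3* 2.47 times in control and 9.39 times in iFIRKO, a pair picked after the values were seen. Whether neighbours in these orders differ could not be judged, since a single library gives no spread.

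Most members have close relatives, and these were read from a fixed list of 16 paralogs, of which 13 reached the level for a call. None was higher, 3 were lower and 10 lay within 1.5-fold, with a median log2 fold change of -0.08. Beside this and every list count below stand the shares over all genes tested, 4.46% higher and 7.29% lower. In lists this short, a share turns on a few genes. The p53 relatives *Trp63* and *Trp73* and the oocyte gene *Btg4* were listed at 0. The MDM2 relative *Mdm4*, which blocks p53 without degrading it, had 2325 and 2201 normalized reads and a log2 fold change of -0.08.

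Neither CIP/KIP paralog of *Cdkn1a* passed the threshold upward. *Cdkn1b*, which encodes p27, had 959.1 and 1001 normalized reads (log2 fold change 0.06). *Cdkn1c*, which encodes p57, had 213.0 and 119.7 normalized reads, a log2 fold change of -0.81 (-1.32 to -0.37), and was lower. A list of INK4 and CIP/KIP inhibitors other than p21 also held *Cdkn3*, a CDK phosphatase gene that belongs to neither family. Of the 7 genes listed, 5 reached the level for a call, with 1 higher, 1 lower (*Cdkn1c*), 3 within 1.5-fold and a median of 0.06. The higher gene was *Cdkn3*, named after its value was seen, with 35.6 and 70.1 normalized reads (0.90, interval 0.12 to 1.89). No tested gene of the INK4 and CIP/KIP families in this list was higher. *Cdkn2c*, the most abundant INK4 gene, was at 0.52.

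Of the *Gadd45* family, *Gadd45b* fell with *Gadd45a*, from 548.6 to 235.3 normalized reads (-1.21, interval -1.54 to -0.90). *Gadd45g* stood the other way, with 523.9 and 747.4 normalized reads and a log2 fold change of 0.51 (0.28 to 0.74). Cyclin G2, encoded by *Ccng2*, a known FOXO target, fell from 1303 to 849.7 normalized reads (-0.61), while its relative *Ccng1* was at 0.34. The BTG and TOB genes gave log2 fold changes of -0.41 for *Btg1*, 0.14 for *Btg3*, 0.12 for *Tob1* and 0.29 for *Tob2*. *Sesn1* was at -0.50, *Sesn3* at -0.25 and *Trp53inp2*, an autophagy and thyroid hormone receptor cofactor, at 0.41.

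Further known p53 targets were taken from 3 lists of 44 genes, of which 38 reached the level for a call. There, 3 genes were higher (7.89%), 4 were lower (10.5%) and 31 lay within 1.5-fold, with a median log2 fold change of -0.02. Those shares exceed the 4.46% and 7.29% of all genes tested, but 5 of the 7 genes past the threshold stayed under 5 CPM (209 normalized reads) in both libraries. Among arrest and feedback targets, *Gtse1*, a G2 and S phase gene whose product shuttles p53 out of the nucleus, was higher, with 119.7 and 224.5 normalized reads (0.88). *Sfn*, the 14-3-3 sigma gene, was lower, with 48.9 and 13.1 normalized reads (-1.62). *Zmat3*, an RNA-binding target of p53, was at 0.46, *Plk2* at 0.15, *Plk3* at -0.27 and *Pml* at -0.43.

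Among the cell death targets, the death receptor gene *Eda2r* was higher, with 40.4 and 102.7 normalized reads (1.26). *Pmaip1*, which encodes the BH3-only protein NOXA, was lower at -1.07 (-2.19 to -0.23), as was *Siva1* at -0.86 (-1.42 to -0.37). *Dram1* also passed the threshold downward, at -0.60, but its interval spanned 0 (-1.34 to 0.04). *Sfn* and these 4 genes were named after their values were seen, because they are the few past the threshold. The better expressed death targets lay within 1.5-fold. *Ei24* was at 0.34, *Perp* at 0.24, *Fas* at -0.10, *Bid* at -0.23 and the nuclease gene *Aen* at 0.56, with 731.1 and 1077 normalized reads.

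Among the metabolic and repair targets, *Ephx1*, the microsomal epoxide hydrolase that also belongs to the xenobiotic response, was the only gene past the threshold. It stood at 9247 normalized reads in control and 23690 in iFIRKO (1.36, interval 1.31 to 1.41). The other 18 lay within 1.5-fold. They include the liver-type mitochondrial glutaminase *Gls2* at 0.00, *Aldh4a1* at -0.12, *Slc19a2* at -0.37 and the stress hormone gene *Gdf15* at -0.46, with 7834 and 5700 normalized reads.

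**Figure D4:**
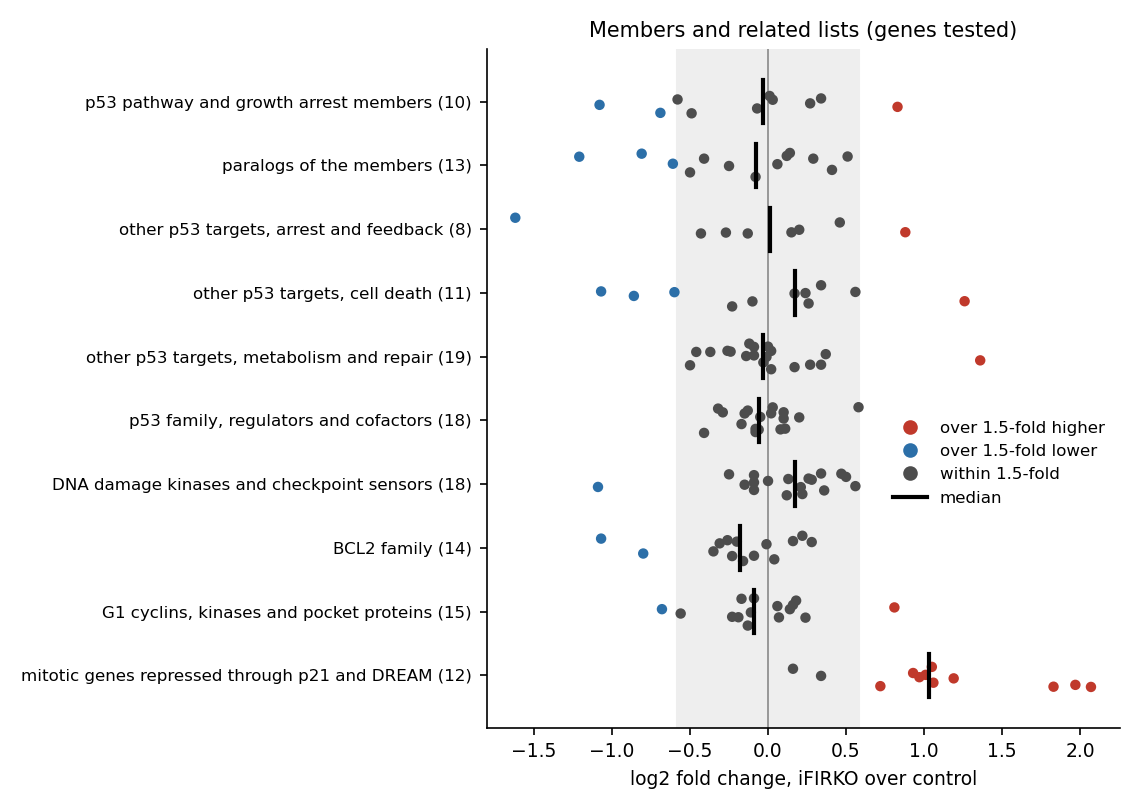
Log2 fold change, iFIRKO over control, of the members and of 9 related lists. Each point is 1 gene that reached the level for a call (red past 1.5-fold higher, blue past 1.5-fold lower), bars are list medians, and the band within 1.5-fold is shaded. The members are centred on -0.03 and the mitotic genes on 1.03.

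Upstream of p53, none of the 18 regulators and cofactors that reached the level for a call passed 1.5-fold in either direction, and their median log2 fold change was -0.06. The kinase gene *Hipk2*, whose product phosphorylates p53, was nearest, at 0.58, with 493.9 and 738.9 normalized reads. The deacetylase gene *Sirt1* was at -0.41, *Trim24* at -0.32, the acetyltransferase gene *Kat5* at -0.29 and the ligase gene *Huwe1* at 0.11. *Rpl5* and *Rpl11*, whose proteins bind MDM2 when ribosome assembly fails, were at -0.17 and -0.08. Of 18 DNA damage kinases and checkpoint sensors, 1 was lower and 17 lay within 1.5-fold, with a median of 0.17. The lower gene was *Clspn*, named after its value was seen, with 95.7 and 42.6 normalized reads. With a minimum of 5 CPM (209 normalized reads), 0 genes of this list were lower. The damage kinase genes *Atm* and *Atr* were at 0.28 and 0.13, *Prkdc* at 0.34, and the checkpoint clamp genes *Rad1* and *Hus1* at 0.47 and 0.36. *Mdc1*, the most abundant gene of this list, was at -0.15 and *Nbn* at 0.21. The counting interval lay above 0 for 5 of the 18 genes, below 0 for 1 and spanned 0 for 12.

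In the BCL2 family, where PUMA and BAX act, 14 of 15 genes reached the level for a call, of which none was higher, 2 were lower and 12 lay within 1.5-fold. The median log2 fold change was -0.18. Besides *Pmaip1*, the lower gene was *Bmf*, another BH3-only gene, with 355.5 and 202.5 normalized reads (-0.80, interval -1.17 to -0.45). The antiapoptotic genes *Mcl1*, whose product PUMA binds, and *Bcl2l2* were at -0.35 and 0.28. *Bok* was at -0.31, *Bnip3* at -0.20 and *Bnip3l* at -0.09.

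Downstream of p21, the G1 cyclins, CDKs and pocket proteins gave a median log2 fold change of -0.09 over 15 genes, with 1 higher and 1 lower. *Ccnd2* was the lower one, with 393.4 and 243.6 normalized reads (-0.68). *Ccne1*, named after its value was seen, was the higher one, with 55.6 and 100.6 normalized reads. With a minimum of 5 CPM (209 normalized reads), 0 genes of this list were higher. *Ccnd1* was at -0.56, *Rbl2* at -0.23, *Cdk6* at 0.24 and *Pcna*, a clamp that p21 binds, at -0.13. The mitotic genes that p21 is known to repress through the DREAM complex were mostly higher beside the higher *Cdkn1a*, 10 of 12 past the threshold with a median of 1.03. *Cdc20* had 231.2 and 916.0 normalized reads (1.97), *Ccnb1* was at 2.07, *Plk1* at 1.83, *Ccnb2* at 1.06 and *Mki67* at 0.72, while *Top2a* was at 0.16.

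Seed matches to the miRNA miR-144-3p, which the study followed, were read in the longest annotated 3′UTR of each member (GENCODE M21, GRCm38). The study also followed miR-486a-3p, but its sequence was missing from the miRNA reference used, so its matches were not read. The mature sequence (RefSeq, GRCm38.p6) is shown with bases 2 to 8, the seed, in capitals. The 7-base complement of the seed occurred in 2 members, *Bbc3* and *Trp53inp1*, and in 11.9% of 21020 genes with a 3′UTR. That share is not matched for length. The 3′UTR has 971 bases in *Bbc3* and 4420 in *Trp53inp1*, with a median of 961 over all genes and 1334 over the members. In *Bbc3* the match was followed by an A, as in 3.88% of genes. Both members had negative log2 fold changes, -1.08 and -0.49, as had 3 of the 8 members without a match. The sites are shown with the match in capitals, *Bbc3* at chr7:16318071-16318093 and *Trp53inp1* at chr4:11171505-11171527, both on the plus strand. A match is a description of the sequence and whether either site is used was not tested.
miR-144-3p: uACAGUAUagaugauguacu
Bbc3 site: ggcccagcctgtaagATACTGTa
Trp53inp1 site: aggaaaaaaagaaacATACTGTt

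Some members share exon sequence with other annotated genes, and no source says whether reads were counted by strand. *Gadd45a* (chr6:67035096-67037457) shares 337 exon bases, 19.1% of its own, with *E230016M11Rik* on the opposite strand, which had 75.9 and 32.6 normalized reads. *Bax* (chr7:45461697-45466898) shares 192 exon bases, 12.2%, with *Gm45808* on the same strand, which had 347.1 and 379.6 normalized reads. *Cdkn1a* (chr17:29090976-29100727) shares 273 bases, 7.68%, with an opposite-strand transcript that the annotation marks as still to be verified. The values of these members are uncertain to that extent.

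The libraries differed in more than the genes above. Total normalized reads were 42003900 and 41579630, for an estimated 21138484 and 20652743 read pairs, and the members themselves had between 90 and 2239 estimated pairs. *Insr* stood at 4246 normalized reads in control and 3692 in iFIRKO (log2 fold change -0.20, interval -0.29 to -0.11). Of the hepatocyte markers, 1 of 8 was lower, the median was -0.13, the counting interval lay below 0 for 7 of 8, and *Alb* was the most abundant, so the defining genes of the labelled tissue were present. Of the Kupffer cell and macrophage markers, 5 of 8 were lower, and their summed normalized reads were 30092 and 19564. Of the 5 neutrophil and lymphocyte markers that reached the level for a call, 4 were lower (815.4 and 291.8 summed over all 12), as were 3 of 7 endothelial markers (11246 and 7953). All 6 erythroid markers were higher, 13455 and 27006 summed. Stellate cell and cholangiocyte markers had no gene past the threshold. Of the 6 adipocyte markers 2 reached the level for a call, *Fabp4* with 469.9 and 469.0 normalized reads and *Cidec*, named after its value was seen, which was higher, with 17.9 and 108.4 (2.35, interval 1.57 to 3.81). *Lep* and *Retn* were listed at 0 in both libraries. *Adipoq* and *Plin1* were at 0 in the control library and at 1 estimated read pair each in the iFIRKO library. In bulk tissue, fewer cells of a type and less RNA per cell cannot be told apart, and the part of these marker shifts in the values of *Cdkn1a*, *Bbc3*, *Gadd45a*, *Btg2* and the other members was not tested.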

How the data were processed

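Liver RNA of the control and iFIRKO groups was made into stranded mRNA libraries and sequenced by the study. The authors deposited log2 normalized read counts, 1 value per symbol and library, in which values from scaled counts up to 1 are 0. The build was mm10 in the submitters' processing notes. The aligner and counter are not given in the sources used here.

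Values were returned to the linear scale, and of 101 repeated symbol rows the first was kept. Log2 fold changes used a pseudocount of 4.18 normalized reads (0.1 CPM), so they understate the change of low genes. The commonest low value stood for 1 read pair, but only 47.3% and 50.2% of values under 40 were then whole reads within 0.01 read, so pairs are estimates. Intervals are exact Clopper-Pearson intervals (scipy 1.17.1) on those pairs without a pseudocount. No p-value was computed. Gene positions came from GENCODE M21, in which 93.3% of symbols were found, and promoter and miRNA sequences from RefSeq (GRCm38.p6). The code was tested on simulated data.

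The members and lists were chosen with earlier results of these data known. Named genes were all members and paralogs, and in other lists up to 3 by level and up to 4 by fold change at 5 CPM or more, with up to 2 by level in marker lists. The unit differed from the one assumed when the limits were set, which were carried over as 41.8 normalized reads for 1 CPM. Alternatives were another pseudocount, filter, scaling, fold threshold and handling of repeated symbols. The value of 1 gene that the rule names is not reported here.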

Additional observations from a re-analysis of the deposited data

How the results depend on the processing

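The limits are those of 1 library per group: intervals cover counting error, not mice or library preparation. No paired analysis was possible because neither group holds more than 1 library, and for the same reason no replicate could be left out. Of the 10 alternative settings, the fold threshold leaves fold changes as they are. In the others, all 90 recomputed member fold changes stayed within their counting intervals, and none with a call changed direction. The filters cannot alter a member's fold change, and summing repeated symbols did not. Only the pseudocount and scaling settings therefore bear on these values. *Cdkn1a* ran from 0.82 to 0.83, *Bbc3* from -1.10 to -0.99, *Gadd45a* from -0.70 to -0.60 and *Btg2* from -0.59 to -0.56 on the log2 scale. *Btg2* passed 1.5-fold, which makes 3 members lower, when libraries were scaled on their totals without the 20 most abundant genes. With a threshold of 2-fold, 0 members were higher and 1, *Bbc3*, was lower. Genes higher over all genes tested, 597 as reported, were 371 with a pseudocount of 1 CPM, 1956 without a minimum, 288 with a minimum of 5 CPM and 209 above 2-fold. Genes lower, 976 as reported, were 576, 2617, 440 and 267 in the same order. With 1 mismatch allowed in the pair of p53 motifs, 2 members held one in place of 1. With an A required after the miR-144-3p match, 1 member held one in place of 2. Scalings moved the median of all genes to between -0.005 and 0.010. Of 377 recomputed values of the related lists, 36 moved. The median of the INK4 and CIP/KIP list went from 0.06 to -0.21 when the minimum was required in both libraries, which left out *Cdkn3*.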

Other observations

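Several of the members are also known targets of pathways other than p53, and 3 lists of such genes were read as values. Among targets of the stress factors ATF4 and CHOP, which can act on *Sesn2*, *Bbc3* and *Cdkn1a*, 10 of 14 genes reached the level for a call, with 3 higher, 2 lower and a median log2 fold change of 0.10. The higher genes were *Asns*, *Atf3* and *Psat1*, and the lower ones were *Trib3* and *Chac1*, all named after their values were seen. Each of these stayed under 5 CPM (209 normalized reads) in both libraries. With a minimum of 5 CPM, 0 genes of the list were higher and 0 were lower. *Atf4* stood at 3598 normalized reads in control and 3285 in iFIRKO (-0.13), *Atf5* was at 0.16, *Ddit4* at -0.21 and *Vldlr* at 0.46.

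The next list held the FOXO factors, which insulin signalling restrains, and FOXO targets. Some of these targets act in arrest, and others, such as *Irs2*, *Fbxo32*, *Cat* and *Sod2*, do not. None of the 14 genes was higher and 3 were lower, with a median of -0.10. *Irs2* fell from 3005 to 1232 normalized reads (-1.28, interval -1.42 to -1.15), and *Ccng2* was at -0.61. *Fbxo32*, named after its value was seen, was the other lower gene, with 192.7 and 108.7 normalized reads. *Foxo1* was at 0.07, *Cat* at 0.14, *Sod2* at 0.11 and *Bcl6* at 0.41. Of 16 clock genes at the level for a call, 1 was higher (*Ciart*) and 2 were lower (*Per3* at -1.10 and *Dbp*), with a median of -0.23. *Ciart* and *Dbp* were named after their values were seen, and both stayed under 5 CPM (209 normalized reads) in both libraries. *Per1* was at 0.48 and *Per2* at 0.46, while *Nfil3* was at -0.29 and *Hlf* at 0.14. The hour at which each liver was taken is not given in the sources used here.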
